A study of Homo sapiens with 4 samples.

Results

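The genes described here encode voltage-gated sodium and calcium channels and potassium channels, together with their auxiliary subunits, and they were chosen by gene symbol alone (symbols beginning with *KCN*, *SCN* or *CACN* followed by the family letters and member number). The rule found 133 of the 57820 genes in the deposited transcript count table, of which 93 belonged to potassium channels, 14 to sodium channels and 26 to calcium channels. RNA was sequenced from SK-N-SH, an established human neuroblastoma cell line, in 2 conditions with 2 libraries each. In the overexpression condition (OE), cells carried a recombinant lentivirus with the long noncoding RNA *RP5-998N21.4* driven by the EF1a promoter, and in the vector control condition, which the labels also call WT, wild-type cells received an empty lentivirus vector without an insert. All 4 libraries therefore came from lentivirus-treated cells of 1 line, and no source states that the replicates were separate cultures, so the p-values below measure only the spread between these libraries, which may be technical.

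Library totals ranged from 23785164 to 28307591 transcript counts, and the transgene checked the labels: vector control libraries held 32 and 33 counts of *RP5-998N21.4*, and OE libraries 2407 and 2808 (log2 fold change 6.11, SE 0.11, adjusted p = 0.0109, edgeR quasi-likelihood test with Benjamini-Hochberg adjustment over 20528 tested genes). Markers of the adrenergic neuroblastoma state, the neuron-like state of such lines, were present for 10 of 11 listed genes, whereas *TH*, the enzyme that starts catecholamine synthesis, had no count in any library. The summed level of these markers was 653 and 714 CPM (counts scaled to each library's normalised total) in vector control and 1157 and 1108 CPM in OE, and all 10 were higher in both OE libraries (as were 27.8% of all tested genes), 8 of them at an unadjusted p under 0.05 (10.1% of all tested genes). Among 8 mesenchymal-state markers 1 was higher and 4 were lower at that threshold (10.1% and 10.7% of all tested genes), with summed levels of 3520 and 3602 CPM in vector control and 4020 and 2506 CPM in OE. In these sums the OE replicates of *VIM* (1254 and 376 CPM) and *COL1A1* (883 and 326 CPM) stood far apart. Vector control held 348 and 350 CPM of *VIM* and 897 and 1039 CPM of *COL1A1*, and neither gene reached that threshold. Of 12 markers of glial, immune, epithelial, liver, islet and muscle cells, 5 had no count and the highest mean was 0.669 CPM. The part that the higher adrenergic markers played in the channel values below was not tested, and in bulk RNA fewer cells of one state cannot be told apart from less RNA per cell.

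Ion channels of these families open in response to membrane voltage, intracellular ions or second messengers and pass sodium, calcium or potassium selectively. Each pore is formed by alpha subunits, and auxiliary subunits (Kv beta, Nav beta, Cav alpha2delta, Cav beta) set how much of the pore protein reaches the membrane and how fast it opens and closes. Sodium channels start the action potential, potassium channels end it and hold the resting potential, and calcium channels couple the voltage change to transmitter release and gene expression.

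The lowest p-values among the channel genes were those of the Kv beta subunit genes *KCNAB1* and *KCNAB2*, whose proteins bind the inner face of Kv channels and have an oxidoreductase fold. These paralogs share a run of 12 exons of equal length. Over their 895 bases, 670 were identical (74.9%), and the longest identical run was 14 bases. One such exon is printed here from the hg19 reference to show how alike the paralogs are. Whether reads of one were credited to the other was not tested. The *KCNAB1* exon lies at chr3:156175242-156175321 and the *KCNAB2* exon at chr1:6142255-6142334, both on the plus strand, and capitals mark the 60 of 80 bases that are identical.
KCNAB1: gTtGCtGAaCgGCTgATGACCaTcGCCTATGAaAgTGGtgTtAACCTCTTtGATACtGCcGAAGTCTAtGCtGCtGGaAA
KCNAB2: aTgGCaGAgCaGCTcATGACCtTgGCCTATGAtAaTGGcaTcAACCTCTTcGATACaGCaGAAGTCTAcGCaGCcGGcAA

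In *KCNAB2* and the Cav beta subunit gene *CACNB1*, the annotated transcript with the most counts differed between OE and vector control libraries. The junctions that separate those transcripts are printed from hg19, 30 bases on either side, with the exon shared by both transcripts in capitals and the part that differs in lower case. For *CACNB1*, on the minus strand, the shared exon bases are chr17:37347817-37347846, joined to chr17:37351137-37351166 in the spliced transcript. In the other transcript they follow directly on chr17:37347847-37347876, which is intronic sequence in the spliced one.
CACNB1 ENST00000394303: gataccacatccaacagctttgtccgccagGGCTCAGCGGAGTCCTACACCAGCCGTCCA
CACNB1 ENST00000539338: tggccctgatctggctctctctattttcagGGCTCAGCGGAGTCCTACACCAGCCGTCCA
For *KCNAB2*, on the plus strand, the shared bases are chr1:6132815-6132844, joined to chr1:6111785-6111814 in the first transcript and to chr1:6100676-6100705 in the other.
KCNAB2 ENST00000378083: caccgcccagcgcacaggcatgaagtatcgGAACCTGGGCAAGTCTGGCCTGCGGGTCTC
KCNAB2 ENST00000481789: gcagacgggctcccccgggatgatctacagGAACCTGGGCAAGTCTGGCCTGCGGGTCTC

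Of the 133 genes, 22 had no count in any library, 32 had too few counts to test (at most 24 in any library) and 79 were tested. No channel gene passed the threshold of an adjusted p under 0.01 with an absolute log2 fold change above 0.5, and neither did any of the 20528 tested genes (0%) in the edgeR test. With DESeq2 the same threshold called 15 channel genes higher and 5 lower in OE, against 8.77% of all tested genes. At an adjusted p under 0.05, which 0.594% of tested genes met in edgeR, *KCNAB1* and *KCNAB2* were lower and no channel gene was higher.

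At an unadjusted p under 0.05, 29 channel genes were higher and 7 were lower in OE, or 36.7% and 8.86% of the 79 tested, where 10.1% and 10.7% of all tested genes were higher and lower. In these 29 are *KCNK15*, *KCNJ3*, *KCNJ8* and *SCN11A*, which passed the low-count filter through the OE libraries alone and so could only come out higher. Among the 73 channel genes above the filter in at least 1 library of each condition, 25 (34.2%) were higher and 7 (9.59%) lower, beside 9.71% and 10.6% of all such genes. The count of higher genes depended on single libraries: it was 16 without vector control 2, 18 without OE 1 and 15 without OE 2, that is 20.3%, 22.8% and 19.0% of the channel genes tested beside 8.84%, 6.09% and 6.91% of all tested genes. The conditions did not overlap for 39 channel genes with higher and 14 with lower levels in OE (27.8% and 27.6% of all tested genes), and they overlapped for 26. The median log2 fold change was 0.30 over the 79 channel genes and 0.0071 over all tested genes. By ion, 19 of 54 tested potassium channel genes were higher and 4 lower at that threshold, 3 of 10 sodium channel genes were higher and none lower, and 7 of 15 calcium channel genes were higher and 3 lower.

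**Figure D1:**
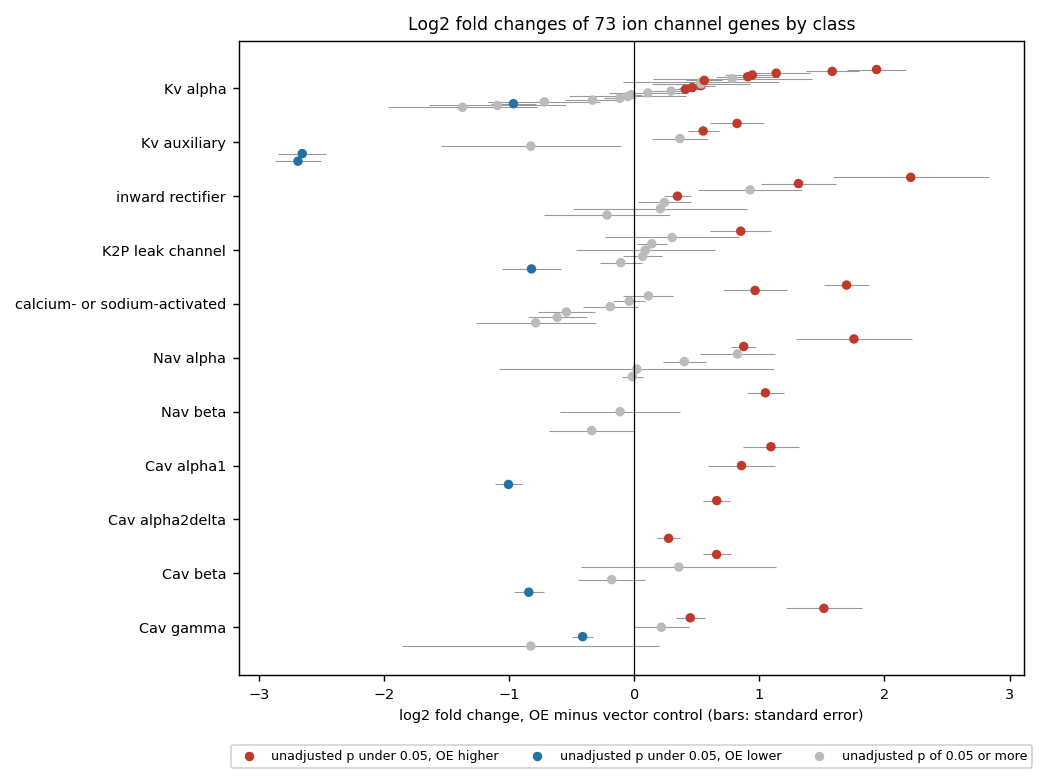
Log2 fold changes (OE minus vector control, horizontal axis) of the 73 tested channel genes with a count in every library, arranged by class on the vertical axis, with points for genes and bars for the standard error. Red and blue points mark genes with an unadjusted p under 0.05 that were higher or lower in OE. The points farthest to the left, near -2.7, are *KCNAB1* and *KCNAB2*.

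The line expressed 28 channel genes at a mean of at least 10 CPM and 33 more at 1 to 10 CPM. Per kilobase of the longest transcript, the highest means were those of *CACNG7* (19.4 CPM per kb), *CACNG4* (15.7), *CACNG8* (12), *CACNA2D1* (11.6), *KCNK1* (10.4), *KCNAB1* (10.2), *KCNQ5* (9.55), *KCNH2* (9.52), *CACNB3* (9.29) and *SCN2A* (7.22). Lengths were found for 189 of the 211 counted channel transcripts. The leading transcript of *KCNH2* was one without, so its place in the order rests on another transcript's length. These means are over both conditions: *KCNAB1* was at 17.0 and 18.4 CPM per kb in vector control but 2.36 and 3.14 in OE, and *CACNG7* was at 3.08 in OE 1. *KCNK1* was at 14.3 and 12.3 CPM per kb in vector control and 8.96 and 6.12 in OE. Several neighbours in this order were not separated by their spread: *CACNG4* ranged from 12.3 to 18.1 CPM per kb over the libraries and *CACNG8* from 9.93 to 13.8, while *KCNQ5* (9.32 to 9.95) lay inside the range of *KCNH2* (7.39 to 11.9). Among genes at 0 in every library were *KCND2*, *KCNB2*, *KCNA5*, *KCNJ6*, *SCN10A*, *SCN4A*, *CACNA1E* and *CACNA1H*.

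**Figure D2:**
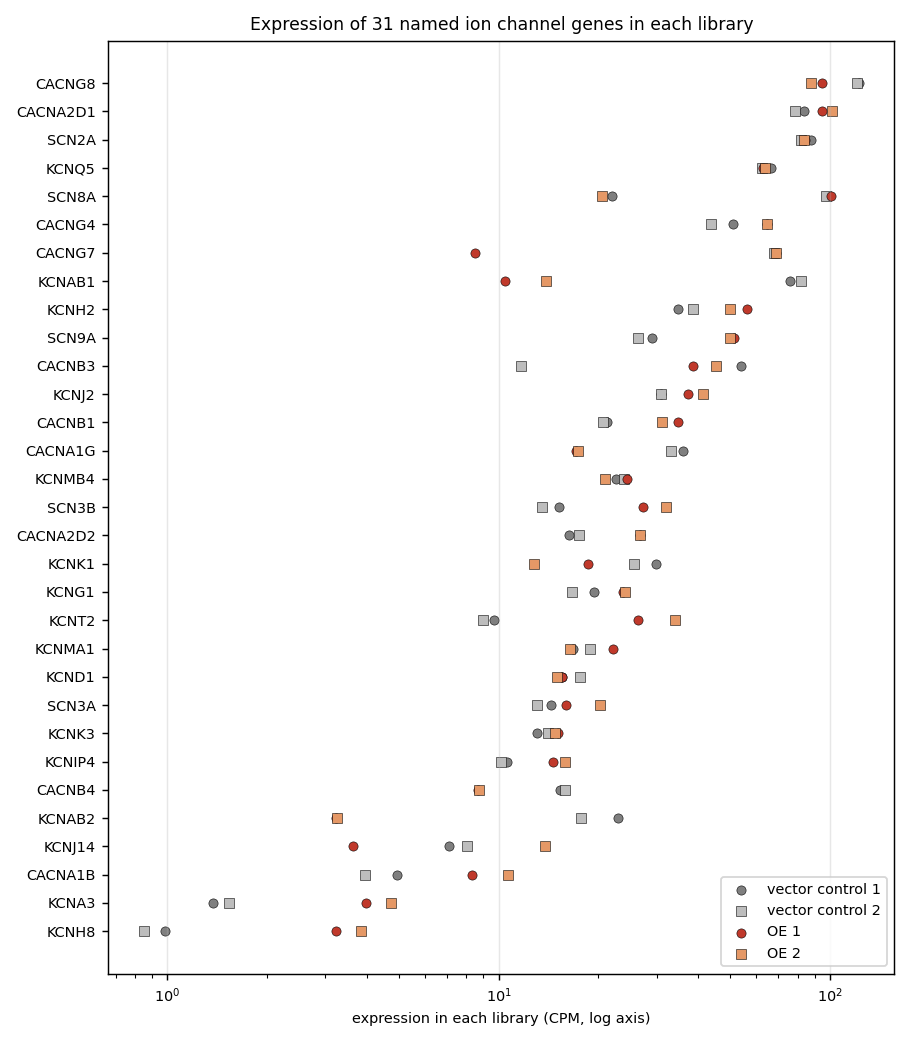
Expression of 31 channel genes chosen by level, p-value or replicate spread, one row per gene, with CPM in each library on a log axis and a separate symbol for each of the 4 libraries. *KCNAB1* (10.5 and 13.9 CPM in OE, 75.6 and 81.8 CPM in vector control) and *KCNAB2* have the widest gaps between conditions, and *SCN8A*, *CACNG7* and *CACNB3* the widest gaps between replicates.

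Kv alpha subunits form the voltage-gated potassium pores. Of 22 tested, 9 (40.9%) were higher and 1 (4.55%) was lower in OE at an unadjusted p under 0.05, beside 10.1% and 10.7% of all tested genes. *KCNH8*, an Elk-family subunit, was at 0.988 and 0.851 CPM in vector control and 3.23 and 3.84 CPM in OE (log2 fold change 1.94, SE 0.24, adjusted p = 0.0751). *KCNA3*, a Shaker-family subunit best known from lymphocytes, was at 1.37 and 1.53 CPM against 3.99 and 4.74 CPM (log2 fold change 1.58, SE 0.21, adjusted p = 0.0797). For both genes the OE libraries lay clear of the vector control libraries, at low levels.

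Among the abundant Kv alpha genes, *KCNH2*, which encodes the hERG channel that repolarises the heart, was at 34.9 and 38.6 CPM in vector control and 56.2 and 50.0 CPM in OE (log2 fold change 0.53, SE 0.12, adjusted p = 0.137). *KCNG1*, an electrically silent subunit that works only in mixed channels, was at 19.4 and 16.6 CPM against 23.8 and 24.1 CPM (log2 fold change 0.41, adjusted p = 0.211). In both genes the OE libraries were the higher ones without overlap, by less than 1 log2 unit. *KCNQ1*, a pore of heart and epithelia, and *KCNH6*, an Erg-family subunit, were also higher at the unadjusted threshold, with log2 fold changes of 0.94 and 1.13.

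The 1 Kv alpha gene lower at that threshold was *KCNH3*, an Elk-family subunit of forebrain neurons, at 6.06 and 5.75 CPM in vector control and 2.75 and 3.28 CPM in OE (log2 fold change -0.97, SE 0.18, adjusted p = 0.115). It overlaps *MCRS1* on the opposite strand, which had 384 and 352 counts in vector control and 241 and 152 in OE, and without a stated strand setting the reads of such pairs cannot be told apart. *KCNQ5*, an M-current subunit, was at 66.5 and 62.3 CPM in vector control and 63.0 and 63.6 CPM in OE. The 95% interval of its log2 fold change, -0.28 to 0.23, includes 0. *KCND1*, an A-type subunit, was at 15.5 and 17.6 CPM against 15.5 and 15.0 CPM, with an interval of -0.48 to 0.25.

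Auxiliary Kv genes held the lowest log2 fold changes of the abundant channel genes. *KCNAB1* (ENSG00000169282, chr3:155755490-156256927 in hg19) was at 75.6 and 81.8 CPM in vector control (78.7 ± 4.33 CPM, SD, n = 2) and at 10.5 and 13.9 CPM in OE (12.2 ± 2.44 CPM, SD, n = 2). The OE level was 0.155 times that of vector control (log2 fold change -2.69, SE 0.19, adjusted p = 0.0442, edgeR), and every count of the gene was on 1 transcript, ENST00000302490, with 1761 and 1921 counts in vector control and 263 and 403 counts in OE. *KCNAB2* (ENSG00000069424, chr1:6050987-6161253) was at 23.0 and 17.8 CPM in vector control and 3.23 and 3.25 CPM in OE, 0.159 times the control level (log2 fold change -2.65, SE 0.19, adjusted p = 0.0473). Neither gene's OE libraries came near its vector control libraries. *NPHP4*, which overlaps *KCNAB2* on the opposite strand, had 420 and 406 counts against 344 and 412. Both calls at 0.05 were lost when any 1 library was left out, with adjusted p from 0.0525 to 0.129 for *KCNAB1* and from 0.0836 to 0.151 for *KCNAB2*, and also with the replicate number as a block (0.278 and 0.296) and with the top transcript alone (0.0661 and 0.0816). Without any 1 library the log2 fold changes stayed between -2.91 and -2.50 and between -2.83 and -2.46.

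The paralog *KCNAB3* was instead at 4.29 and 3.32 CPM in vector control and 7.21 and 6.26 CPM in OE (log2 fold change 0.82, SE 0.21, adjusted p = 0.166). *KCNIP4*, a calcium-binding KChIP subunit of A-type channels, was at 10.6 and 10.2 CPM against 14.6 and 15.9 CPM (log2 fold change 0.55, adjusted p = 0.143). Both were higher in OE without overlap. Over the class of 11 auxiliary genes, the summed level was 119 and 117 CPM in vector control and 40.5 and 44.8 CPM in OE. Without *KCNAB1* and *KCNAB2* it was 20.1 and 17.9 CPM against 26.8 and 27.6 CPM.

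Inward rectifiers (*KCNJ*) and K2P leak channels (*KCNK*) hold the resting potential. Of 9 tested *KCNJ* genes, 4 were higher and none lower at an unadjusted p under 0.05, beside 10.1% and 10.7% of all tested genes, and *KCNJ3* and *KCNJ8* of these 4 passed the filter through OE alone. *KCNJ2*, the main strong inward rectifier of muscle and many other cells, was at 31.0 and 30.9 CPM in vector control and 37.2 and 41.6 CPM in OE (log2 fold change 0.35, SE 0.11, adjusted p = 0.203). Its antisense partner *KCNJ2-AS1* had 129 and 134 counts against 171 and 204. The others were low: *KCNJ3*, a G protein-gated subunit, had 4 and 0 counts in vector control and 32 and 59 in OE. *KCNJ9*, from the same G protein-gated group, was at 1.59 and 2.47 CPM against 5.54 and 4.56 CPM. *KCNJ8*, a pore of ATP-sensitive channels, was at 0.215 and 0.34 CPM against 0.797 and 1.80 CPM. All 3 of these low genes had higher values in both OE libraries.

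Of 9 tested *KCNK* genes, 2 were higher and 1 (11.1%) was lower, beside 10.1% and 10.7% of all tested genes, and *KCNK15* of the higher ones passed the filter through OE alone. *KCNK1*, the most abundant of them per kilobase, was at 29.8 and 25.7 CPM in vector control and 18.7 and 12.8 CPM in OE (log2 fold change -0.82, SE 0.24, adjusted p = 0.192). *KCNK15* had no count in either vector control library but 27 and 45 in OE, which is at least 8.35-fold higher when the floor of 3 counts is taken for each vector control library and compared with the lower OE library. *KCNK15* overlaps *RIMS4* on the opposite strand, and *RIMS4* had 529 and 576 counts in vector control and 1461 and 1812 in OE. *KCNK4*, a mechanosensitive leak channel, was at 1.07 and 1.11 CPM against 2.11 and 1.83 CPM (log2 fold change 0.85, adjusted p = 0.187). *KCNK3*, an acid-sensitive leak channel, was at 13.1 and 14.1 CPM against 15.1 and 14.8 CPM, with an interval of the log2 fold change from -0.20 to 0.48.

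Among potassium channels opened by calcium or sodium, the sodium-activated *KCNT2* was at 9.71 and 8.98 CPM in vector control and 26.4 and 34.2 CPM in OE, 3.24 times the control level (log2 fold change 1.70, SE 0.18, adjusted p = 0.0662). Its paralog *KCNT1* was at 5.15 and 3.92 CPM against 10.2 and 7.57 CPM (log2 fold change 0.97, adjusted p = 0.169). Both sodium-activated genes were higher in OE without overlap, and none of the 6 other tested genes of the class reached an unadjusted p under 0.05. *KCNMA1*, the big-conductance calcium-activated pore, was at 16.8 and 18.9 CPM against 22.2 and 16.4 CPM (interval of the log2 fold change -0.46 to 0.68). Its neuronal beta subunit *KCNMB4* was at 22.7 and 23.9 CPM against 24.3 and 21.0 CPM (interval -0.41 to 0.33). For *KCNMA1* and *KCNMB4* the OE libraries lay on either side of the vector control libraries.

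Voltage-gated sodium channels differed gene by gene. *SCN9A*, a pore subunit of sensory and sympathetic neurons, was at 29 and 26.3 CPM in vector control and 51.3 and 50.1 CPM in OE, 1.83 times the control level (log2 fold change 0.88, SE 0.10, adjusted p = 0.0707). The auxiliary subunit gene *SCN3B* was at 15.2 and 13.5 CPM against 27.3 and 32.0 CPM, 2.07 times the control level (log2 fold change 1.05, SE 0.14, adjusted p = 0.0817). In both genes the OE libraries were clear of the vector control libraries. The other sodium channel gene higher at an unadjusted p under 0.05, *SCN11A* of pain-sensing neurons, was at 0.387 and 0.213 CPM against 1.12 and 0.933 CPM. It passed the filter through OE alone. *SCN11A* overlaps *WDR48* on the opposite strand, which had 1172 and 1131 counts in vector control and 1515 and 1686 in OE. *SCN2A*, a main pore of central neurons with the highest mean per kilobase among the sodium channel genes, although *SCN8A* exceeded it in vector control 2 and OE 1, was at 87.5 and 81.8 CPM against 84.0 and 83.6 CPM. The 95% interval of its log2 fold change was -0.26 to 0.23. *SCN3A*, prominent in the developing brain, was at 14.4 and 13.1 CPM against 16.0 and 20.3 CPM (log2 fold change 0.40, adjusted p = 0.304).

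For *SCN8A*, the pore subunit of the axon initial segment, the replicates of both conditions disagreed, with 22.0 and 97.5 CPM in vector control and 101 and 20.6 CPM in OE. The low libraries were vector control 1 and OE 2, so the log2 fold change of 0.02 had an SE of 1.10. It was -0.69 without vector control 1, 1.46 without vector control 2, -1.54 without OE 1 and 0.75 without OE 2. *CACNG7* and *CACNB3* also had replicates more than 4-fold apart: *CACNG7* was at 68.8 and 68.1 CPM in vector control and 8.49 and 68.7 CPM in OE, and *CACNB3* was at 53.9 and 11.7 CPM against 38.6 and 45.4 CPM. In *CACNG7* OE 1 was the single low library and in *CACNB3* vector control 2. *KCNJ14* was at 7.09 and 8.04 CPM against 3.63 and 13.8 CPM, one OE library below and one above the vector control libraries. Over all channel genes tested, 15 had replicates more than 2-fold apart, those with 0 beside a count included.

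**Figure D3:**
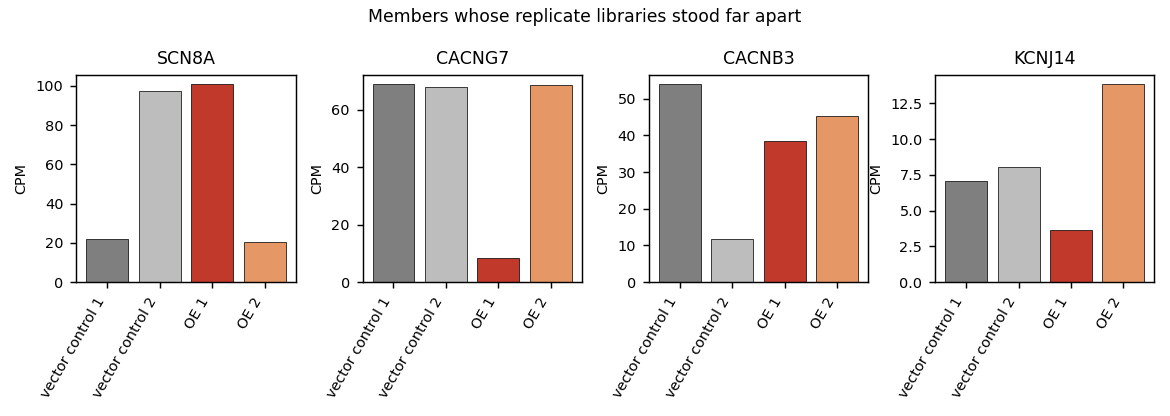
CPM of *SCN8A*, *CACNG7*, *CACNB3* and *KCNJ14* in each of the 4 libraries, 1 bar per library and 1 panel per gene. The replicates of at least 1 condition stand far apart in every panel: *SCN8A* is low in vector control 1 and OE 2, *CACNG7* in OE 1 and *CACNB3* in vector control 2.

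Calcium channel pores are formed by alpha1 subunits. *CACNA1G*, a low-voltage-activated T-type pore, was at 36.2 and 33.3 CPM in vector control and 17.2 and 17.4 CPM in OE, 0.498 times the control level (log2 fold change -1.0, SE 0.11, adjusted p = 0.0657). *CACNA1B*, the N-type pore that triggers transmitter release in sympathetic neurons, was at 4.94 and 3.96 CPM against 8.33 and 10.6 CPM (log2 fold change 1.09, SE 0.22, adjusted p = 0.124). *CACNA1C*, the L-type pore of heart and brain, was at 1.89 and 2.26 CPM against 4.38 and 3.15 CPM (log2 fold change 0.86, adjusted p = 0.209). *CACNA1G* was thus lower and *CACNA1B* and *CACNA1C* were higher in both OE libraries, each at an unadjusted p under 0.05.

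The alpha2delta subunits, extracellular partners that raise the amount of channel at the membrane and bind gabapentin-class drugs, were both higher at that threshold. *CACNA2D2* was at 16.3 and 17.5 CPM in vector control and 26.7 and 26.8 CPM in OE (log2 fold change 0.66, SE 0.11, adjusted p = 0.0964). *CACNA2D1* was at 83.8 and 78.7 CPM against 94.8 and 102 CPM (log2 fold change 0.28, SE 0.09, adjusted p = 0.221). The other 2 alpha2delta genes were not tested, since *CACNA2D3* had 5 counts in 1 library and *CACNA2D4* none.

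Cav beta subunits bind the cytoplasmic side of the pore. *CACNB1* was at 21.2 and 20.6 CPM in vector control and 34.9 and 31.2 CPM in OE (log2 fold change 0.66, SE 0.11, adjusted p = 0.101), whereas *CACNB4* was at 15.4 and 15.8 CPM against 8.65 and 8.75 CPM (log2 fold change -0.84, SE 0.12, adjusted p = 0.0832). Neither gene's groups overlapped, and they lay in opposite directions. *CACNB2* was at 4.81 and 3.57 CPM against 4.22 and 3.18 CPM and overlapped between conditions.

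Of the *CACNG* genes, *CACNG2*, *CACNG4*, *CACNG7* and *CACNG8* encode proteins best known as AMPA receptor auxiliary subunits. *CACNG8*, the channel gene with the highest mean CPM, was at 122 and 120 CPM in vector control and 94.6 and 87.8 CPM in OE (log2 fold change -0.41, SE 0.08, adjusted p = 0.12). *CACNG4* was at 51.1 and 43.9 CPM against 64.7 and 64.9 CPM (log2 fold change 0.45, SE 0.11, adjusted p = 0.164). *CACNG2* was at 0.773 and 1.19 CPM against 2.91 and 2.73 CPM (log2 fold change 1.52, adjusted p = 0.121), or 18 and 28 against 73 and 79 counts. A long noncoding RNA gene, ENSG00000261675, overlaps it on the same strand, with 20 and 41 counts in vector control and 55 and 62 in OE. Whether reads of that gene were credited to *CACNG2* was not tested. *CACNG8* was therefore lower, and *CACNG4* and *CACNG2* higher, in both OE libraries.

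The counts were deposited per transcript, and 211 of the 799 transcripts of the channel genes had a count. Of the 65 tested channel genes with at least 10 counts in every library, 52 had the same leading transcript in all 4 libraries and 13 did not. In 3 of those 13, *CACNB1*, *KCNAB2* and *KCNG1*, the leading transcript was the same within each condition and different between conditions. In *KCNG1* this was a near tie, with 230 against 210, 199 against 192, 281 against 307 and 344 against 345 counts for its leading pair in vector control 1 and 2 and OE 1 and 2. *CACNB1* counts in vector control lay on ENST00000539338, which holds intronic sequence before the shared exon (463 and 452 counts, against 0 and 0 in OE). In OE they lay on the spliced ENST00000394303 (868 and 897 counts, against 0 and 33 in vector control). *KCNAB2* counts lay on ENST00000378083 in vector control (470 and 336 counts) with none in OE, where ENST00000481789 led with 69 and 48 counts. That transcript had 0 and 45 counts in vector control, so vector control 2 lay near the OE libraries for it. The junction letters printed above are what distinguishes these transcripts at the shared exon.

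Such exchanges also occurred between replicates. *SCN9A* counts lay on ENST00000375387 in both vector control libraries and OE 1 (675, 618 and 1287 counts) but on ENST00000409672 in OE 2 (1450 counts), and neither transcript had a count where the other was used. *CACNA1B* counts lay on ENST00000371355 in vector control 1 (115 counts) and on ENST00000277549 in the 3 other libraries. With each gene reduced to its single most counted transcript, *SCN9A* had a log2 fold change of -0.11 in place of 0.88. How the authors' pipeline divided reads between transcripts is not given in the sources used here, and its part in the transcript values was not tested.

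**Figure D4:**
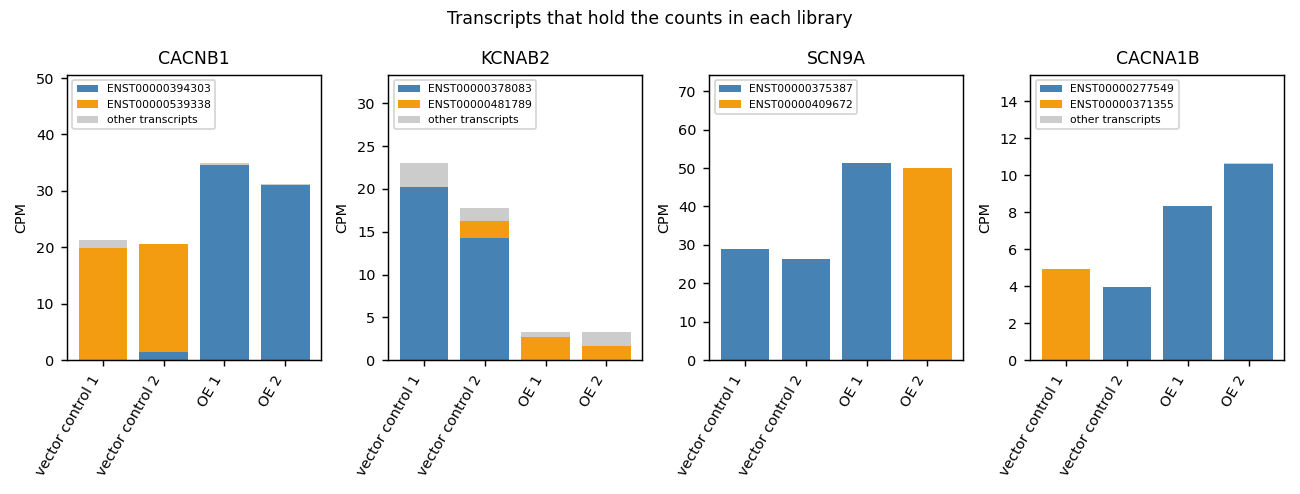
CPM of *CACNB1*, *KCNAB2*, *SCN9A* and *CACNA1B* in each library, stacked by transcript, with the pair of transcripts highest in total in blue and orange and any others in grey. *CACNB1* changes its transcript between conditions, whereas *SCN9A* (OE 2) and *CACNA1B* (vector control 1) change it between replicates.

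A list of 44 genes whose products assemble with, anchor or regulate these channels was examined beside them. Of 35 tested, 12 were higher and 3 lower at an unadjusted p under 0.05 (42.9%, against 20.8% of all tested genes), none at an adjusted p under 0.05, and the median log2 fold change was 0.13. *STAC*, an adaptor of L-type channels, was at 20.7 and 22.9 CPM in vector control and 51.7 and 52.8 CPM in OE (log2 fold change 1.26, SE 0.10, adjusted p = 0.0533). *RIMBP2*, which tethers calcium channels to release sites, was at 16.6 and 15.2 CPM against 31.8 and 36.1 CPM (log2 fold change 1.09, SE 0.13, adjusted p = 0.0707). *ANK2*, a membrane scaffold, was at 36 and 26 CPM against 70.9 and 73.3 CPM (log2 fold change 1.22, adjusted p = 0.095), and the OE libraries were the higher ones in all these genes.

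*CNTNAP2*, which clusters Shaker-family channels on axons, was at 23.1 and 28.5 CPM against 49.4 and 57.1 CPM (log2 fold change 1.05, adjusted p = 0.0931). *UNC79* and *UNC80*, subunits of the sodium leak channel complex, had log2 fold changes of 1.19 and 0.97, while the pore gene *NALCN* itself was at 1.29 and 2.47 CPM against 0.558 and 1.76 CPM and overlapped between conditions. The remaining genes with higher values at that threshold were *DPP6*, an A-type channel subunit with a log2 fold change of 1.74, and *FAM155A*, *FAM155B*, *FGF11*, *FGF14* and *NRCAM*, with log2 fold changes from 0.40 to 0.85. Lower at the same threshold were *CALM3*, a calmodulin gene (257 and 262 CPM against 168 and 177 CPM, log2 fold change -0.59, adjusted p = 0.069), the lysosomal channel gene *TPCN1* (log2 fold change -0.53) and *STAC2* (log2 fold change -0.80). *CALM2* had 75 and 7200 counts in vector control and 140 and 87 in OE, so vector control 2 alone set its fold change. *REST*, the repressor of many neuronal channel genes, was at 158 and 150 CPM against 136 and 146 CPM (log2 fold change -0.12, SE 0.08).

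**Figure D5:**
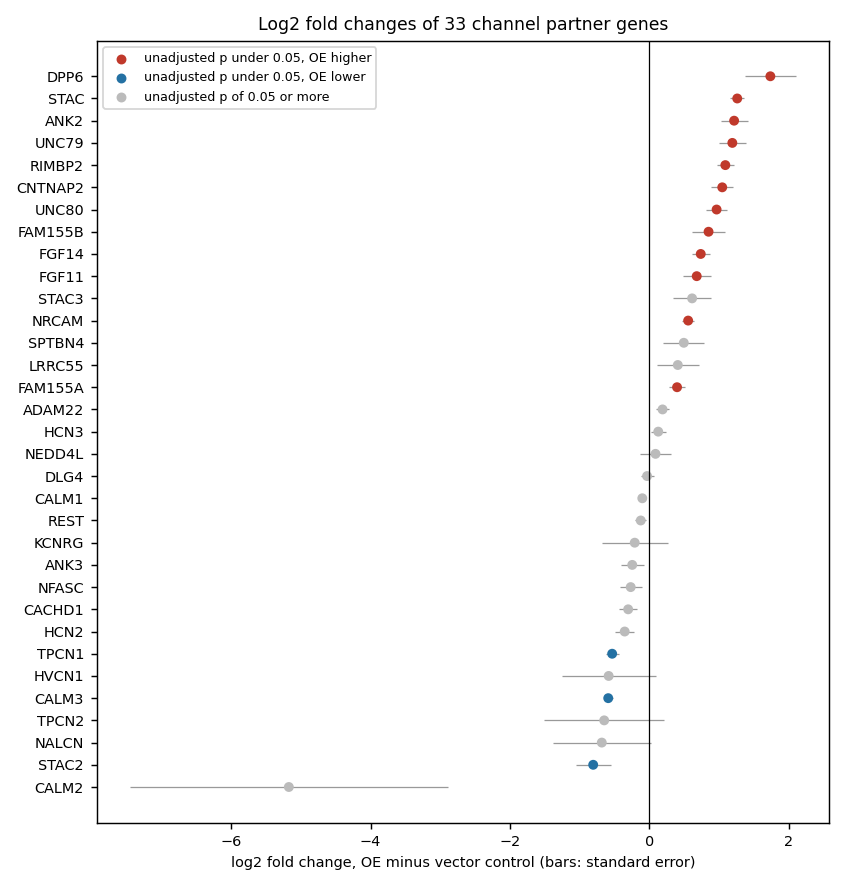
Log2 fold changes (OE minus vector control, horizontal axis) of the 33 tested partner genes with a count in every library, 1 gene per row, with bars for the standard error and red and blue for an unadjusted p under 0.05. *DPP6*, *STAC* and *ANK2* lie at the upper end, and *CALM2*, at the far left, has the widest bar.

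Promoter windows of 300 bases were found for 95 of the 133 genes among RefSeq sequences of GRCh38.p14, 147 windows in all. The left part of the REST binding element, TTCAGCACC, searched on both strands, was in 2.04% of them (*CACNG3*, *KCNH6* and *KCNK3*) and in 0.376% of all 35116 windows. Its right part, GGACAGCGC, was in 0 of the 147 and in 0.581% of all windows. These matches describe the letters only.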

How the data were processed

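Counts were deposited by the authors as one table of read counts per transcript (196520 transcripts), with no normalization. The submitters' processing notes name Bowtie2 2.0.4, Picard 2.21.6, StringTie 2.1.6, DESeq2 and hg19. By the study's methods, trimmed reads (Trimmomatic) were mapped to hg19 with Bowtie2 and tested with DESeq2. The tool that counted transcripts, the annotation and the strand setting are not given in the sources used here. Counts were summed over transcripts per gene and tested, OE against vector control, with the quasi-likelihood test of edgeR 4.0.16 (legacy setting, TMM, filterByExpr, Benjamini-Hochberg adjustment over 20528 genes, common dispersion 0.122, residual df 2). An exact permutation test of 2 against 2 libraries cannot go below p = 0.333. CPM values use TMM-scaled totals. Intervals are 95% intervals of the fit, and the floor of 3 counts covers counting error only. Library totals were 23785164, 24098041, 24601728 and 28307591, and the median SE of a channel gene's log2 fold change was 0.235.

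The genes given with full statistics were the 10 with the smallest p among those without overlap, the 2 most abundant per kilobase in each class, those with replicates over 4-fold apart at a mean of at least 1 CPM, and those at a mean of at least 10 CPM (31 genes). A few channel genes are not reported here by name. Others are named with values where a class or transcript count turns on them, chosen after their values were seen. The members and lists were chosen with earlier results of these data known. Alternatives were other normalizations, filters and tests (DESeq2 1.42.0, limma 3.58.1), a replicate block, each library left out, and the top transcript of each gene. The test was run on simulated counts first.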

Additional observations from a re-analysis of the deposited data

How the results depend on the processing

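Over 13 alternatives, 403 values of the 31 genes given with full statistics were recomputed: 373 kept their direction and side of the threshold, 14 passed it with DESeq2 and 16 changed sign. With 1 library left out at a time, log2 fold changes that changed sign ranged from -1.54 to 1.46 for *SCN8A*, -1.06 to 0.87 for *KCNJ14*, -0.36 to 1.84 for *CACNB3* (lowest without vector control 2), -3.01 to 0.0049 for *CACNG7* (highest without OE 1), -0.12 to 0.31 for *KCNMA1*, -0.15 to 0.064 for *KCNMB4*, -0.075 to 0.021 for *KCNQ5* and -0.067 to 0.031 for *SCN2A*. In other settings, *SCN8A* was at -0.080 with voom and -0.026 with the replicate block, *KCNJ14* at -0.041 and -0.075 in the same settings, *KCNQ5* and *SCN2A* at 0.015 and 0.024 with upper-quartile scaling, and *SCN9A* at -0.11 with its top transcript. With the top transcript, 3 genes kept their sign but moved far: *CACNB1* to 5.53 (SE 2.4), *KCNAB2* to -11.76 and *CACNA1B* to 2.25 (SE 2.36). The cause was not tested.

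DESeq2 called 15 channel genes higher and 5 lower, and 8.77% of all tested genes, where edgeR called none. At an unadjusted p under 0.05 DESeq2 counted 14 partner genes higher and 7 lower, where edgeR counted 12 and 3. Over all tested genes, that threshold was met by 28.9% with DESeq2 and 20.8% with edgeR, both directions together. With edgeR, an adjusted p under 0.05 left 2 channel genes lower. The count of channel genes higher at an unadjusted p under 0.05 was 15 to 21 with 1 library left out and 20 to 32 otherwise. The median log2 fold change ranged from 0.27 to 0.42. *RP5-998N21.4* passed an adjusted p of 0.01 with DESeq2 (6.12), the non-legacy edgeR setting (6.11) and a minimum of 1 count (6.12), and had an adjusted p of 0.193 with the replicate block and 0.0415 to 0.0525 with 1 library left out.

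The replicate numbers are shared by the labels only. Deviations of same-numbered libraries had a correlation of -0.02, and with the replicate block the counts at an unadjusted p under 0.05 were 24 higher (30.4% of the channel genes tested, beside 7.22% of all tested genes) and 7 lower, and neither *KCNAB1* nor *KCNAB2* kept an adjusted p under 0.05 (0.278 and 0.296). Depth limits the 18 tested genes under 1 CPM and the 32 with at most 24 counts.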
